A study of Glycine max with 20 samples.

Results

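The whole seed coat libraries of early development are 4 of the 20 RNA-Seq libraries of the series. They compare seed coats at WS25, taken from soybean seeds of 25 to 50 mg fresh weight, with seed coats at WS10, taken from seeds of 10 to 25 mg. The libraries were chosen by tissue and seed weight, which the labels give, and by the stranded kit, which the study's supplement gives, and by no measured value. Each stage holds 1 library of UC7 and 1 of UC413, and a further 2 whole seed coat libraries at WS50 (50 to 100 mg) came from a non-stranded kit and enter no test. UC7 is Clark 63, with the genotype *ii R T Mi g* and, at maturity, a yellow seed coat and a black hilum. UC413 is a Clark isoline with the genotype *ii R t mi G* and, at maturity, a light green seed coat and a minute hilum of imperfect black colour. At seed weights of 10 to 100 mg the study describes the coats of both as green and alike to the eye. Both isolines carry *ii R*, they grew in a greenhouse, and their seed coats were dissected, frozen and lyophilized before the RNA was extracted. The isolines differ at more than the *mi* locus, since *T* and *G* differ as well, and the stage change was therefore taken within each isoline.

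The seed coat is maternal tissue that grows from the integuments of the ovule around the endosperm and the embryo. In young seeds its cells divide and expand, and in legumes its inner layers unload sucrose and amino acids for the embryo. Later the palisade and hourglass layers lay down thick walls, and the coat of soybean is green and holds chloroplasts before it matures. The question of the comparison is which of these programmes moved between the 2 seed weights in both isolines.

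The values are RPKM of Glyma models, the predicted transcripts of the soybean genome, scaled between libraries by size factors and called scaled RPKM below. A Glyma name gives its chromosome before the G, and genome coordinates were not used here. Gene names come from the best Arabidopsis hit or the description that the file gives, so a role is known from Arabidopsis unless said otherwise. The WS25 libraries held 94259800 (UC7) and 91769000 (UC413) alignments, and the WS10 libraries 101903000 (UC7) and 122536000 (UC413). With that depth, 3 alignments to a model of 1 kb give an RPKM of 0.0245 to 0.0327. Alignments to the rDNA region took 2.77% (UC7) and 0.505% (UC413) at WS25, against 5.32% (UC7) and 0.572% (UC413) at WS10. Reads could align to several models, so gene copies of near-identical sequence would share reads. Which copies do was not tested.

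Markers of the seed coat were at the highest sums and those of the embryo and endosperm at lower ones. The seed coat markers (79 genes) summed to 2873 scaled RPKM in UC7 and 3252 in UC413 at WS25, against 5206 and 3542 at WS10. Most of that difference lay in the BURP domain genes of the list, with 1482 in UC7 and 1347 in UC413 at WS25, against 3533 and 1894 at WS10. Among them Glyma.07G176700 had 1080 (UC7) and 993 (UC413) at WS25, against 3219 and 1629 at WS10. It did not pass the limma test (adjusted p 0.636). The 2 genes with the hit STK, a MADS-box regulator of the ovule and the seed coat, summed to 414.4 in UC7 and 468.7 in UC413 at WS25, against 521.1 and 525.7 at WS10. Of 45 tested genes of the seed coat markers 7 rose (15.6%) and 1 fell (2.22%), against 6.7% and 5.85% of all tested genes. Genes of embryo and cotyledon markers (12 of 20 markers had a gene, 41 genes) summed to 125.8 in UC7 and 65.4 in UC413 at WS25, against 22.9 and 47.8 at WS10. The 1 gene with the hit LEC1, a regulator of embryo identity, was at 0 in the 4 libraries, and those of LEC2 reached at most 0.0192. Other embryo regulators were expressed. The genes with the hit FUS3 summed to 7.37 in UC7 and 3.66 in UC413 at WS25, against 2.35 and 1.74 at WS10, and those with the hit L1L to 8.39 and 2.92 at WS25, against 5.23 and 6.04 at WS10. Endosperm markers (4 of 7 had a gene, 63 genes) summed to 12 in UC7 and 10.9 in UC413 at WS25, against 14.8 and 9.93 at WS10. A change in bulk tissue can come from a change in the share of a cell type or in RNA per cell, which cannot be told apart here.

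Decreases were frequent among cell division genes, and increases among secondary wall, photosystem, oleosin and GH3 genes. Among 55372 tested models, limma called 3176 higher (5.74%) and 2851 lower (5.15%) at an adjusted p under 0.05. A size rule without a test, at least 2-fold the same way in both isolines, held for 701 models higher (1.27%) and 791 lower (1.43%), against 37 models that moved 2-fold in opposite directions. With 1 model for each of 30100 genes, the calls came to 2018 genes higher (6.7%) and 1762 lower (5.85%), and the size rule to 504 genes higher (1.67%) and 515 lower (1.71%). These 4 percentages are the background for each gene list below. Both rules together held for 493 genes higher and 509 lower. The change had the same direction in both isolines for 72.1% of the models, with a Pearson r of 0.64 across models, which are not independent replicates. UC7 spread more widely than UC413, with an SD of the log2 change of 0.64 against 0.45.

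**Figure D1:**
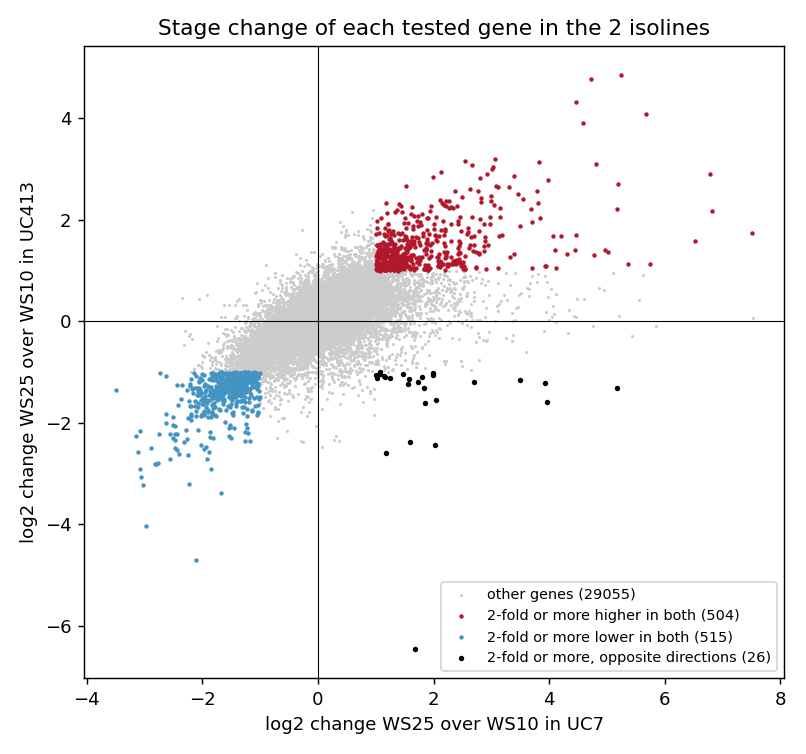
Log2 change from WS10 to WS25 in UC7 (horizontal axis) and in UC413 (vertical axis), 1 point for each of 30100 tested genes. Coloured points are the 504 genes at least 2-fold higher and the 515 genes at least 2-fold lower in both isolines, and the 26 genes in black moved 2-fold in opposite directions, up in UC7 and down in UC413.

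The calls rest on 4 libraries and 1 residual degree of freedom, so that the error is the difference between the isolines pooled over models (prior degrees of freedom 7.85). To leave out 1 of the 4 libraries, the others were fitted together with the 8 extended hilum libraries of EH10 and EH25 described below. That fit called 619 models higher and 762 lower with all 12 libraries, and none without any 1 of the 4, with 4488 to 11767 models at an unadjusted p under 0.05. In the fit of 4 libraries, limma with no low-value filter called 0 as well (15848 at an unadjusted p under 0.05). The split also turned with the scaling, to 565 higher and 778 lower with RPKM as deposited and to 475 higher and 810 lower with an equal sum outside the rDNA region. The prior variance also followed a trend with level, which gave wide errors at high levels, so abundant genes were called less readily. Without that trend, 8 genes named in the text gained the call and 3 lost it. The levels of both isolines are therefore given for each gene that a result turns on. Genes that "rose" or "fell" passed limma's adjusted p.

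Cell division was the clearest decrease. Of 76 tested genes of the core histones, variants included, which package DNA, 35 fell (46.1%), none rose and 16 fell at least 2-fold in both isolines. Their median log2 change was -0.86 against 0.00071 over all models. Their summed level was 2935 scaled RPKM in UC7 and 2785 in UC413 at WS25, against 5659 and 3882 at WS10. Of 125 kinesins, a family of microtubule motors that includes those of the spindle and the division plane, 61 fell and none rose. Of 37 genes of DNA replication and mitosis 22 fell and none rose, and of 56 cyclins 23 fell and 3 rose. The drop in the histone sum was larger in UC7 than in UC413, and both isolines ended close together.

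Glyma.11G130900, a histone, had 16.4 (UC7) and 18.1 (UC413) scaled RPKM at WS25, against 70.9 and 45.2 at WS10 (log2 change -1.70, SE 0.26, adjusted p 0.00558). The 2 stages did not overlap, and the WS25 libraries lay closer to each other than the WS10 libraries. Glyma.10G031200, with the hit H2A 11, had 8.05 (UC7) and 8.28 (UC413) at WS25, against 36.9 and 22.6 at WS10. CDKB2;2 is the cyclin-dependent kinase that acts at the entry into mitosis. Its gene Glyma.14G224000 had 6.09 (UC7) and 7.39 (UC413) at WS25, against 22.7 and 20.3 at WS10 (log2 change -1.64, SE 0.19). The paralogs Glyma.17G262300 and Glyma.07G070200 fell by 1.60 and 1.62 on the log2 scale. Glyma.05G097300, a D3 cyclin that drives cells into the cycle, had 1.67 (UC7) and 1.62 (UC413) at WS25, against 6.40 and 4.92 at WS10. Among the B cyclins of mitosis, Glyma.14G037100 had 2.75 (UC7) and 3.47 (UC413) at WS25, against 11.3 and 9.56 at WS10. Kinesin Glyma.17G177100 had 0.653 (UC7) and 0.982 (UC413) at WS25, against 2.79 and 3.37 at WS10. PCNA2, the sliding clamp of the replication fork, fell less (Glyma.08G334900, log2 change -0.67, SE 0.18, adjusted p 0.0498). Of 512 ribosomal protein genes 20 fell (3.91%, against 5.85% of all genes) and 4 rose, with a median of -0.23 (UC7 -0.41, UC413 -0.07). Their summed level was 14854 (UC7) and 14836 (UC413) at WS25, against 20813 and 15637 at WS10. Errors were wide at high levels, so the share called does not measure the size of this change.

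**Figure D2:**
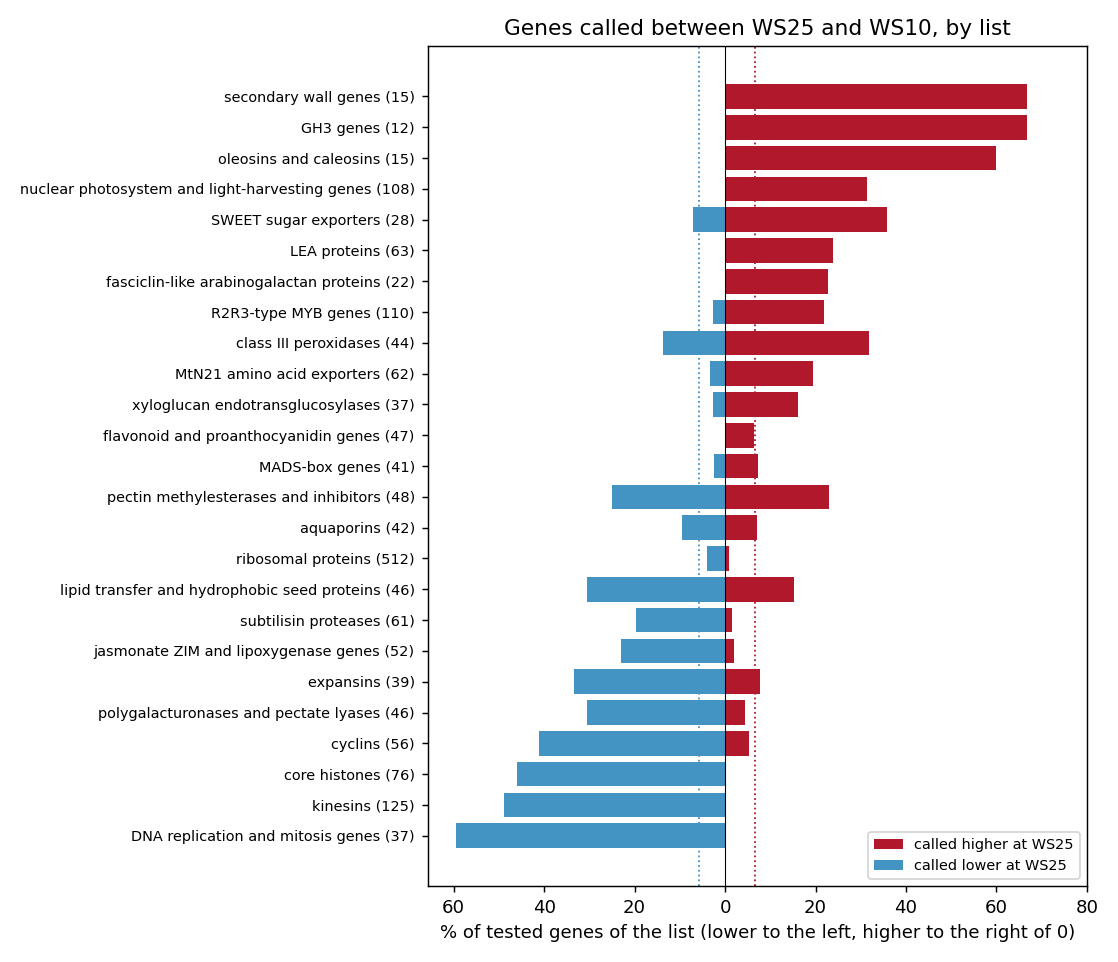
Share of the tested genes of 25 gene lists that limma called higher (to the right of 0) or lower (to the left of 0) at WS25 relative to WS10, in percent of the list. Dotted lines mark the shares over all genes, 6.70% higher and 5.85% lower; histones, kinesins and replication genes extend far past the line for lower genes, and secondary wall genes, oleosins and GH3 genes past the line for higher genes.

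The largest increases lay in genes of low level at WS10. Glyma.06G050400, of the domain DUF239, had 11.3 (UC7) and 12.6 (UC413) scaled RPKM at WS25, against 0.0524 and 0.193 at WS10 (log2 change 5.06, SE 0.18, adjusted p 2.33e-05). Glyma.05G106900, a galactosyltransferase of the GMA12 family, whose Arabidopsis members add xylose or galactose to wall polysaccharides, had 8.51 (UC7) and 9.72 (UC413) at WS25, against 0.0812 and 0.113 at WS10 (log2 change 4.75, SE 0.18). Glyma.02G077800, which the file does not annotate, had 57.2 (UC7) and 38.3 (UC413) at WS25, against 2.34 and 1.67 at WS10. In these 3 genes the isolines lay close together at each stage and the stages far apart. Glyma.20G078000, also without annotation, had 36.0 (UC7) and 14 (UC413) at WS25, against 0.461 and 0.582 at WS10. A pair of O-fucosyltransferases rose as well. Glyma.09G061300 had 32.7 (UC7) and 26.4 (UC413) at WS25, against 2.08 and 2.76 at WS10, and Glyma.15G167600 had 26.3 (UC7) and 30.2 (UC413) at WS25, against 3.02 and 3.43 at WS10. Glyma.12G097400, a dirigent-like protein of the family that steers the coupling of phenolic radicals, had 105 (UC7) and 71.2 (UC413) at WS25, against 9.81 and 9.48 at WS10 (log2 change 3.13, SE 0.23).

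Other large increases were uneven between the isolines. The defensin-like gene Glyma.05G198000 had 81 (UC7) and 8.66 (UC413) at WS25, against 0.489 and 0.937 at WS10 (log2 change 4.84, SE 0.67, adjusted p 0.0039). The mitochondrial small heat shock protein Glyma.12G013100 had 124 (UC7) and 11 (UC413) at WS25, against 3.58 and 4.08 at WS10. Glyma.13G103100, a xyloglucan endotransglucosylase that cuts and rejoins wall xyloglucan, had 224 (UC7) and 72.5 (UC413) at WS25, against 6.95 and 27.1 at WS10. In each of the 3, both WS25 libraries were above both WS10 libraries and the UC7 library at WS25 was far above the other 3.

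**Figure D3:**
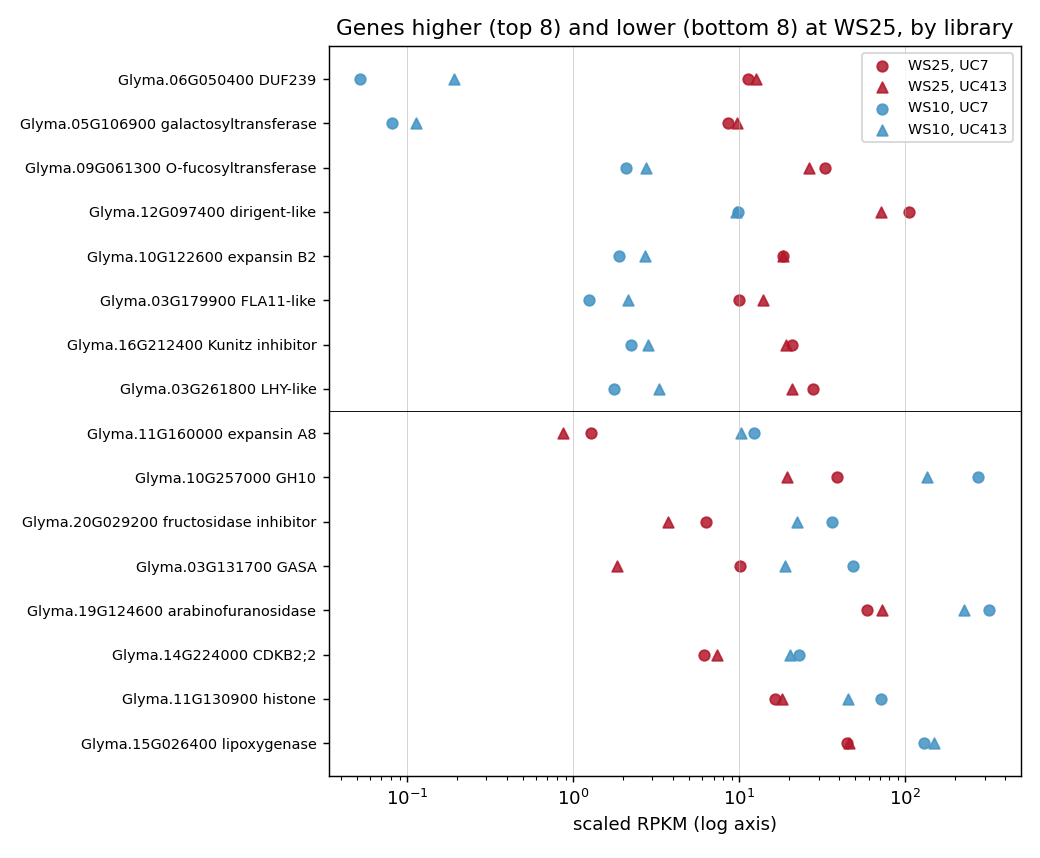
Scaled RPKM (log axis) of 16 genes in each of the 4 whole seed coat libraries, with colour for the stage and shape for the isoline. The 8 genes above the line were higher and the 8 below it lower at WS25, and in none of the 16 do the WS25 and WS10 libraries overlap; Glyma.05G106900 shows the widest gap.

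Secondary wall genes rose together. Of 15 tested genes of that list 10 rose, none fell and 5 were past 2-fold in both isolines, with a median log2 change of 1.08. Their summed level was 116.3 (UC7) and 215.8 (UC413) at WS25, against 44.9 and 106.5 at WS10, so UC413 was above UC7 at both stages. The cellulose synthases CESA4, CESA7 and CESA8 together form the complex of secondary walls. Glyma.04G153700, a CESA7, had 14.2 (UC7) and 30.7 (UC413) at WS25, against 4.58 and 14.3 at WS10, and its paralog Glyma.06G225500 had 20.4 (UC7) and 42.5 (UC413) at WS25, against 6.12 and 20.2 at WS10. The CESA4 gene Glyma.15G157100 had 11.7 (UC7) and 22.6 (UC413) at WS25, against 4.50 and 9.84 at WS10. The CESA8 gene Glyma.06G065000 had 17 (UC7) and 34.7 (UC413) at WS25, against 6.93 and 17.5 at WS10. In each of these genes UC413 at WS10 lay near UC7 at WS25, so the stages overlap or nearly overlap across the isolines while both isolines moved up. CESA1 of primary walls (Glyma.04G067900) had 39.3 (UC7) and 44.1 (UC413) at WS25, against 45.7 and 47.3 at WS10, with a log2 change of -0.16 (SE 0.25, adjusted p 0.725).

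The other wall proteins varied by family. Of 22 fasciclin-like arabinogalactan proteins 5 rose and none fell. The FLA11 genes, known for a protein of stem secondary walls, led them. Glyma.03G179900 had 9.97 (UC7) and 13.9 (UC413) at WS25, against 1.24 and 2.14 at WS10 (log2 change 2.67, SE 0.16), and Glyma.03G180000 had 12 (UC7) and 14.7 (UC413) at WS25, against 1.73 and 2.19 at WS10. Glyma.19G180700 changed by 1.97. The chitinase-like CTL2 genes, known from Arabidopsis as partners of secondary wall cellulose, rose too, and Glyma.09G038500 had 39.1 (UC7) and 62.3 (UC413) at WS25, against 10.8 and 23.4 at WS10. Glyma.04G005400, with the hit proline-rich protein 2, had 25.9 (UC7) and 38.9 (UC413) at WS25, against 5.70 and 11 at WS10 (log2 change 1.97, SE 0.19).

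Of 44 class III peroxidases, which cross-link wall phenolics and proteins, 14 rose and 6 fell. Glyma.15G050800 had 112 (UC7) and 85.3 (UC413) at WS25, against 20.7 and 22.4 at WS10, while Glyma.10G222500 had 11.2 (UC7) and 9.22 (UC413) at WS25, against 41.5 and 42.6 at WS10. The most abundant peroxidase, Glyma.17G013600, had 1860 (UC7) and 2080 (UC413) at WS25, against 1741 and 1430 at WS10, and did not pass the test (adjusted p 0.915).

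The expansins, which loosen growing walls, went both ways. Of 39 tested 13 fell and 3 rose. A pair with the hit expansin A8 had the largest decreases of all named genes. Glyma.11G160000 had 1.27 (UC7) and 0.866 (UC413) at WS25, against 12.2 and 10.2 at WS10 (log2 change -3.13, SE 0.16, adjusted p 0.00014), and Glyma.18G054000 changed by -3.06. In the other direction, Glyma.10G122600, with the hit expansin B2, had 18.3 (UC7) and 18.2 (UC413) at WS25, against 1.89 and 2.70 at WS10 (log2 change 2.88, SE 0.18). The most abundant expansin, Glyma.03G035800, had 271 (UC7) and 238 (UC413) at WS25, against 141 and 57.7 at WS10, and missed the threshold (adjusted p 0.0682, or 0.0202 without the trend).

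Pectin-cutting enzymes were mostly on the falling side. Of 46 polygalacturonases and pectate lyases 14 fell and 2 rose. Glyma.10G230900 had 1.11 (UC7) and 0.331 (UC413) at WS25, against 9.81 and 3.03 at WS10, and Glyma.19G221600 had 19.3 (UC7) and 20.8 (UC413) at WS25, against 70.9 and 46.4 at WS10. Of 48 pectin methylesterases and inhibitors 11 rose and 12 fell. The 12 include Glyma.20G029000, Glyma.20G029200 and Glyma.20G029500, which are invertase inhibitors by best hit and are given again below.

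Several glycosyl hydrolases were among the genes named for the largest decreases in change or in level. Glyma.10G257000, of glycosyl hydrolase family 10, the family of xylanases, had 38.5 (UC7) and 19.3 (UC413) at WS25, against 273 and 136 at WS10 (log2 change -2.81, SE 0.30, adjusted p 0.00158). Its neighbour Glyma.10G256900 changed by -2.78 and Glyma.20G134200 by -2.34. In these genes UC7 was above UC413 at both stages. The arabinofuranosidase Glyma.19G124600, which trims arabinose from wall polymers, had 59.1 (UC7) and 71.8 (UC413) at WS25, against 319 and 226 at WS10 (log2 change -2.04, SE 0.41). The beta-galactosidase Glyma.12G173700 had 69.2 (UC7) and 31.3 (UC413) at WS25, against 196 and 155 at WS10. Beta-glucosidase 42 (Glyma.08G150400) had 1.36 (UC7) and 1.06 (UC413) at WS25, against 14 and 6.01 at WS10.

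Of 61 subtilisin proteases 12 fell and 1 rose, with Glyma.18G239500 at 17.8 (UC7) and 12.4 (UC413) at WS25, against 83.9 and 39.8 at WS10. The serine carboxypeptidase-like Glyma.12G010100 had 108 (UC7) and 107 (UC413) at WS25, against 434 and 329 at WS10 (log2 change -1.81, SE 0.47, adjusted p 0.0431). Of 46 lipid transfer and hydrophobic seed protein genes 7 rose and 14 fell. Glyma.13G288100 of that list had 4.70 (UC7) and 5.72 (UC413) at WS25, against 0.344 and 0.401 at WS10, and Glyma.01G132600, with the hit lipid transfer protein 1, had 0.700 (UC7) and 0.324 (UC413) at WS25, against 4.81 and 3.26 at WS10.

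Among genes called or past 2-fold in both isolines, the 3 largest increases in level did not pass the test, since the trend in the prior variance gave wide errors at high levels. Glyma.09G092700, listed among the extensins and proline-rich wall proteins, had 2682 (UC7) and 4683 (UC413) scaled RPKM at WS25, against 945 and 1139 at WS10. Both WS25 libraries were more than 2-fold above WS10 of their isoline, but its log2 change of 1.77 had an SE of 1.55 and an adjusted p of 0.505 (0.00638 without the trend). Glyma.17G105600 had 1239 (UC7) and 1619 (UC413) at WS25, against 541 and 590 at WS10, and Glyma.14G033000 had 1089 (UC7) and 837 (UC413) at WS25, against 378 and 264 at WS10. Neither is annotated in the file or passed the test. Glyma.14G021900, of the family of the stigma-specific protein Stig1, did pass, with 233 (UC7) and 245 (UC413) at WS25, against 54.0 and 46.5 at WS10 (log2 change 2.25, SE 0.36, adjusted p 0.00663).

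Nuclear genes of the photosystems and their antennae rose. Of 108 tested 34 rose (31.5%), none fell and 10 were past 2-fold in both isolines, with a median log2 change of 0.57 in UC7 and 0.60 in UC413. The summed level was 2769 (UC7) and 3237 (UC413) at WS25, against 1780 and 1967 at WS10, and the stages did not overlap. Glyma.02G305400, a light-harvesting protein of photosystem II, had 76.0 (UC7) and 90.2 (UC413) at WS25, against 24.6 and 29.8 at WS10 (log2 change 1.60, SE 0.26, adjusted p 0.00662). Glyma.06G150300, the PSI-N subunit of photosystem I, had 36.5 (UC7) and 35.5 (UC413) at WS25, against 14.6 and 17.4 at WS10. The most abundant antenna gene, Glyma.05G128000, had 218 (UC7) and 248 (UC413) at WS25, against 91.4 and 113 at WS10, with an adjusted p of 0.103 (0.0107 without the trend).

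Among the seed proteins, oleosin genes were called most often, while the sums of cupins and of protease inhibitors were not higher in both isolines. Of 15 tested oleosins and caleosins, the proteins that coat oil bodies, 9 rose and none fell, with a median log2 change of 1.23 (UC7 1.99, UC413 0.65). Glyma.10G193900, an oleosin 1, had 16.6 (UC7) and 10.5 (UC413) at WS25, against 1.64 and 2.05 at WS10 (log2 change 2.69, SE 0.22, adjusted p 0.000573), and Glyma.20G196600 had 3.37 (UC7) and 1.63 (UC413) at WS25, against 0.0262 and 0.231 at WS10. The oleosin 1 sum is part of the embryo markers, of which 8 of 16 tested genes rose and none fell. The median of those markers was 1.70 in UC7 and 0.50 in UC413. Of 27 cupins 6 rose and none fell, with a median log2 change of 0.04 and sums of 294 (UC7) and 307 (UC413) at WS25, against 364 and 308 at WS10. Of the 6, Glyma.11G065800 had 5.75 (UC7) and 2.89 (UC413) at WS25, against 0.284 and 0.604 at WS10. PAP85, a vicilin-like storage protein, summed over 10 genes to 43.4 (UC7) and 24.6 (UC413) at WS25, against 4.63 and 18.6 at WS10. ABI3, the regulator of seed maturation, summed to 14 (UC7) and 6.76 (UC413) at WS25, against 4.74 and 5.82 at WS10. The part of embryo tissue in these changes was not tested.

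Of 63 LEA proteins, which protect drying cells, 15 rose and none fell. The dehydrin Glyma.04G009900 had 32.5 (UC7) and 15 (UC413) at WS25, against 5.08 and 5.35 at WS10. Glyma.09G185500 was high in the UC7 library at WS25 alone, with 75.0 (UC7) and 1.18 (UC413) at WS25, against 1.15 and 0.403 at WS10. Of 17 Kunitz and Bowman-Birk protease inhibitors 4 rose and 1 fell, with a median of -0.36 and sums of 621 (UC7) and 842 (UC413) at WS25, against 728 and 641 at WS10. Glyma.16G212400, a Kunitz inhibitor, had 20.7 (UC7) and 19.1 (UC413) at WS25, against 2.23 and 2.80 at WS10 (log2 change 2.87, SE 0.18, adjusted p 0.00019), and both isolines moved alike. Of 52 papain-type, vacuolar processing and metacaspase proteases 13 rose and 1 fell, with Glyma.10G207100 at 23.3 (UC7) and 16.4 (UC413) at WS25, against 4.01 and 7.37 at WS10. Of 83 heat shock proteins 11 rose and 4 fell, and their summed level was 2474 in UC7 and 1398 in UC413 at WS25, against 1521 and 1435 at WS10. The UC7 library at WS25 stood above the other 3 for heat shock and, in part, for LEA and oleosin genes, and the part of this library in the changes was not tested.

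Genes of sugar handling moved in both directions. SWEET proteins export sucrose and hexoses across the plasma membrane, and of 28 tested 10 rose and 2 fell. Glyma.20G082700 had 2.94 (UC7) and 1.80 (UC413) at WS25, against 0.774 and 0.576 at WS10, while Glyma.19G009900 had 2.67 (UC7) and 1.74 (UC413) at WS25, against 9.84 and 6.90 at WS10. The most abundant SWEET gene, Glyma.08G183500, with the hit SAG29, had 505 (UC7) and 538 (UC413) at WS25, against 481 and 299 at WS10, and its log2 change of 0.46 did not pass the test. The list includes 1 model, Glyma.19G066300, whose best hit is a xyloglucan enzyme. Of 16 sucrose and hexose transporters 4 rose and none fell. The hexose carrier STP1 (Glyma.08G059700) had 69.6 (UC7) and 22.8 (UC413) at WS25, against 9.28 and 5.82 at WS10 (log2 change 2.40, SE 0.25). The sucrose symporter SUC2 (Glyma.02G075000) had 48.4 (UC7) and 38.6 (UC413) at WS25, against 25.1 and 20.3 at WS10 (log2 change 0.93, SE 0.22).

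Invertases split sucrose outside the cell or in the vacuole, and C/VIF proteins inhibit them. Of 6 tested invertases 3 fell and none rose. Cell wall invertase 4 (Glyma.20G029100) had 0.660 (UC7) and 0.595 (UC413) at WS25, against 2.29 and 1.28 at WS10. Inhibitor genes with neighbouring gene numbers on chromosome 20 fell too. Glyma.20G029200, with the hit C/VIF1, had 6.27 (UC7) and 3.71 (UC413) at WS25, against 36.0 and 22.2 at WS10 (log2 change -2.49, SE 0.17), and Glyma.20G029000, Glyma.20G029500 and Glyma.20G028700 changed by -2.64, -2.48 and -2.35. The 4 have the same best hit, and whether they share reads was not tested. None of 9 sucrose synthases passed the test, with a median log2 change of -0.54. Their summed level was 315 (UC7) and 464 (UC413) at WS25, against 601 and 536 at WS10. Of 41 genes of starch synthesis and breakdown 2 fell (4.88%, near the 5.85% of all genes) and none rose.

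Amino acid exporters of the MtN21 family rose in 12 of 62 tested genes and fell in 2. A set of 3 of the family was highest in the UC7 library at WS25, with Glyma.06G112200 at 27.2 (UC7) and 3.31 (UC413) at WS25, against 0.304 and 1.64 at WS10. Glyma.08G182500 fell, to 5.25 (UC7) and 2.42 (UC413) at WS25, against 25.9 and 16.3 at WS10. Of 42 aquaporins, the water channels, 3 rose (7.14%) and 4 fell (9.52%), shares not far from the 6.7% and 5.85% of all genes. The plasma membrane channel Glyma.08G015300 had 9.35 (UC7) and 10.8 (UC413) at WS25, against 33.8 and 23.1 at WS10, and Glyma.05G208700 had 10.9 (UC7) and 12 (UC413) at WS25, against 36.5 and 25.7 at WS10.

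GH3 genes led the hormone lists. GH3 enzymes join auxin or jasmonate to amino acids, and several are induced by auxin. Of 12 tested 8 rose and none fell, with a median log2 change of 2.40 in UC7 and 0.92 in UC413. Glyma.05G101300 had 11 (UC7) and 6.19 (UC413) at WS25, against 0.710 and 0.964 at WS10 (log2 change 2.98, SE 0.25, adjusted p 0.000586). Glyma.13G284600 had 60.7 (UC7) and 18.2 (UC413) at WS25, against 11.2 and 6.53 at WS10. The summed level of the list was 226 (UC7) and 70.9 (UC413) at WS25, against 59.6 and 38.6 at WS10. A pair with the hit AUX1, the carrier that takes auxin into cells, rose in both isolines. Glyma.11G228300 had 19.4 (UC7) and 16 (UC413) at WS25, against 5.05 and 3.70 at WS10, and Glyma.18G029000 changed by 1.86. Of 80 Aux/IAA repressors only 5 rose and 3 fell, a share close to the background.

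Of 13 tested cytokinin genes 3 rose and 2 fell. LOG1 releases active cytokinin, and its gene Glyma.14G218100 had 1.95 (UC7) and 2.25 (UC413) at WS25, against 0.168 and 0.268 at WS10 (log2 change 2.34, SE 0.23). IPT5, an enzyme of the first step of synthesis, was at 11 (UC7) and 26.0 (UC413) at WS25, against 4.71 and 4.99 at WS10 (Glyma.18G297300). The cytokinin oxidase Glyma.17G054500, which breaks cytokinin down, had 0.738 (UC7) and 2.72 (UC413) at WS25, against 4.55 and 12.8 at WS10 (log2 change -2.21, SE 0.16), and Glyma.13G104700 changed by -1.81.

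For gibberellin, the inactivating oxidase GA2ox8 (Glyma.13G287600) had 1.81 (UC7) and 1.64 (UC413) at WS25, against 0.472 and 0.342 at WS10. GASA peptides, annotated as gibberellin-regulated, split into 4 that rose and 5 that fell of 25. Glyma.06G024500 had 12 (UC7) and 17.8 (UC413) at WS25, against 4.35 and 3.37 at WS10, while Glyma.03G131700 had 10.2 (UC7) and 1.83 (UC413) at WS25, against 48.5 and 18.9 at WS10 (log2 change -2.72, SE 0.24). The abscisic acid receptor PYL1 (Glyma.01G018800) had 15.5 (UC7) and 5.39 (UC413) at WS25, against 2.77 and 2.21 at WS10. Of 52 jasmonate ZIM and lipoxygenase genes 12 fell and 1 rose. The lipoxygenase Glyma.15G026400 had 44.4 (UC7) and 45.6 (UC413) at WS25, against 129 and 148 at WS10 (log2 change -1.61, SE 0.31), and Glyma.07G007000 had 11.9 (UC7) and 11.2 (UC413) at WS25, against 41.6 and 36.3 at WS10.

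ACC oxidases carry out the last step of ethylene synthesis. Glyma.02G268000 had 91.7 (UC7) and 4.91 (UC413) at WS25, against 0.253 and 1.30 at WS10 (log2 change 4.63, SE 0.98, adjusted p 0.0206), and Glyma.14G049500 had 39.8 (UC7) and 2.18 (UC413) at WS25, against 0.184 and 0.565 at WS10. Both rose in both isolines, and the UC7 library at WS25 was far above the other 3. A second pair differed far more between the isolines than between the stages, and its stage change, positive in both isolines, did not pass the test. Glyma.09G008400 had 0.116 (UC7) and 53.2 (UC413) at WS25, against 0.0567 and 40.4 at WS10 (log2 change 0.32, adjusted p 0.222), and Glyma.15G112700 had 0.0980 (UC7) and 22.3 (UC413) at WS25, against 0.0590 and 10.7 at WS10 (log2 change 0.61, adjusted p 0.118).

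Among transcription factors, increases outnumbered decreases for R2R3-type MYB genes (24 of 110 rose, 3 fell), homeobox genes (19 of 127 rose, 2 fell), NAC genes (12 of 76 rose, 4 fell) and bHLH genes (12 of 109 rose, 4 fell). AP2/ERF genes split evenly, with 14 of 115 that rose and 15 that fell. Of 41 MADS-box genes 3 rose and 1 fell, a share of increases near that of all genes. SND2 is a NAC regulator of secondary wall synthesis, and Glyma.07G201800 had 6.63 (UC7) and 4.40 (UC413) at WS25, against 0.814 and 1.20 at WS10 (log2 change 2.19, SE 0.23, adjusted p 0.00158). KNAT7, a homeobox regulator of the same walls, had 28.0 (UC7) and 68.7 (UC413) at WS25, against 13.6 and 23.9 at WS10 (Glyma.17G132600). NAC100 (Glyma.19G024500) had 6.96 (UC7) and 3.65 (UC413) at WS25, against 0.892 and 0.691 at WS10. WOX11, a homeobox gene of root founder cells in Arabidopsis, had 9.92 (UC7) and 4.24 (UC413) at WS25, against 1.20 and 0.859 at WS10 (Glyma.03G007600), and its paralog Glyma.19G118400 changed by 1.71. MYB118, known from the endosperm, had 2.13 (UC7) and 2.38 (UC413) at WS25, against 0.384 and 0.391 at WS10 (Glyma.05G005400). ZHOUPI, which works in the endosperm to break it down, had 1.02 (UC7) and 1.00 (UC413) at WS25, against 0.247 and 0.245 at WS10 (Glyma.02G103200), and AGL80 of the central cell fell to 0.677 (UC7) and 0.793 (UC413) at WS25, against 2.14 and 1.89 at WS10 (Glyma.18G053000). The summed endosperm markers given above did not separate the stages, and the part of endosperm in these 3 genes was not tested.

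Pigment genes were called higher at a share near that of all genes. Of 47 flavonoid and proanthocyanidin genes 3 rose (6.38%, against 6.7% of all genes), none fell and none was past 2-fold in both isolines. Flavanone 3-hydroxylase (Glyma.02G048400) had 548 (UC7) and 979 (UC413) at WS25, against 785 and 790 at WS10 (log2 change -0.10, adjusted p 0.959). The *T* locus gene Glyma.06G202300, a flavonoid 3'-hydroxylase, had 96.6 (UC7) and 80.5 (UC413) at WS25, against 149 and 67.6 at WS10 (log2 change -0.18, SE 0.36, adjusted p 0.785). Of 41 phenylpropanoid genes 3 rose (7.32%) and 4 fell (9.76%), against 6.7% and 5.85% of all genes. Phenylalanine ammonia lyase 1 (Glyma.19G182300) had 4.11 (UC7) and 3.38 (UC413) at WS25, against 8.56 and 6.92 at WS10. A gene with the hit TT10, the laccase that oxidizes proanthocyanidins, rose from a low level. Glyma.10G219100 had 1.86 (UC7) and 1.38 (UC413) at WS25, against 0.102 and 0.248 at WS10 (log2 change 2.15, SE 0.28), while the more abundant TT10 gene Glyma.16G158400 had 154 (UC7) and 321 (UC413) at WS25, against 181 and 211 at WS10. The wall protein gene SbPRP3 (Glyma.11G154900) had 403 (UC7) and 476 (UC413) at WS25, against 281 and 284 at WS10, with an adjusted p of 0.554.

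The same seed weights were compared in the extended hilum region, with 2 libraries for each isoline at EH25 and at EH10. This region is the hilum with a small border of coat, and so a part of the whole seed coat. Those 8 libraries are not whole seed coat libraries and entered neither rule. Of the 493 genes past both rules higher, 487 (98.8%) also had a positive change in the extended hilum and 126 were called there, with a median log2 change of 1.53 in whole seed coats and 0.93 in the extended hilum. In the extended hilum limma called 502 models higher (0.856%) and 87 lower (0.148%) of 58648. Of the 509 genes past both rules lower, 481 (94.5%) had a negative change in the extended hilum and 20 were called there, with medians of -1.42 and -0.62. Over all genes 51.0% were positive, with a median of 0.0053. The replicates of EH25 were uneven. For the 493 genes the median change of each EH25 library against the EH10 mean of its isoline was 1.48 (UC7 replicate 1), 0.60 (UC7 replicate 2), 0.89 (UC413 replicate 1) and 0.57 (UC413 replicate 2), and for the 509 genes -1.13, -0.43, -0.53 and -0.41 in the same order. In the replicate 2 libraries 87.6% and 88.0% of the 493 genes were positive and 81.9% and 84.3% of the 509 negative, in UC7 and UC413. Expansin A8 (Glyma.11G160000) shows the gap, with 2.22 and 11.8 (UC7) and 5.65 and 13.4 (UC413) in replicates 1 and 2 at EH25, against 12.5 and 7.21 (UC7) and 18.2 and 14.5 (UC413) at EH10. Glyma.05G198000, Glyma.12G013100 and Glyma.13G103100 were far highest in the UC7 library at WS25 among the whole seed coats. In UC7 at EH25 these genes had 49.4, 223 and 190 in replicate 1, and 1.86, 16.3 and 15.4 in replicate 2. By library number, each whole seed coat library of WS10 and WS25 directly follows extended hilum replicate 1 of the same isoline and seed weight. Whether the libraries of such a pair share a collection was not tested, for UC7 EH25 replicate 1 and the UC7 library at WS25 or for the others.

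In 1 fit over the 12 libraries of both tissues, the test of the difference between the 2 changes called 0 models (0%; smallest adjusted p 0.363, 2750 models had an unadjusted p under 0.05). The alternative limma-voom, run on the recovered alignments, called 0 as well, with 2802 models at an unadjusted p under 0.05. Without UC7 EH25 replicate 1 that count was 83. Named genes with a large change in both tissues were FLA11 (Glyma.03G179900, 2.67 in whole seed coats and 1.75 in the extended hilum), expansin B2 (Glyma.10G122600, 2.88 and 2.26) and the dirigent-like gene (Glyma.12G097400, 3.13 and 2.29). By contrast, the C/VIF1 gene Glyma.20G029200 had -2.49 in whole seed coats and -0.21 in the extended hilum, and the lipoxygenase Glyma.15G026400 had -1.61 and -0.01. Since no model passed the test of the difference, these pairs are values side by side.

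**Figure D4:**
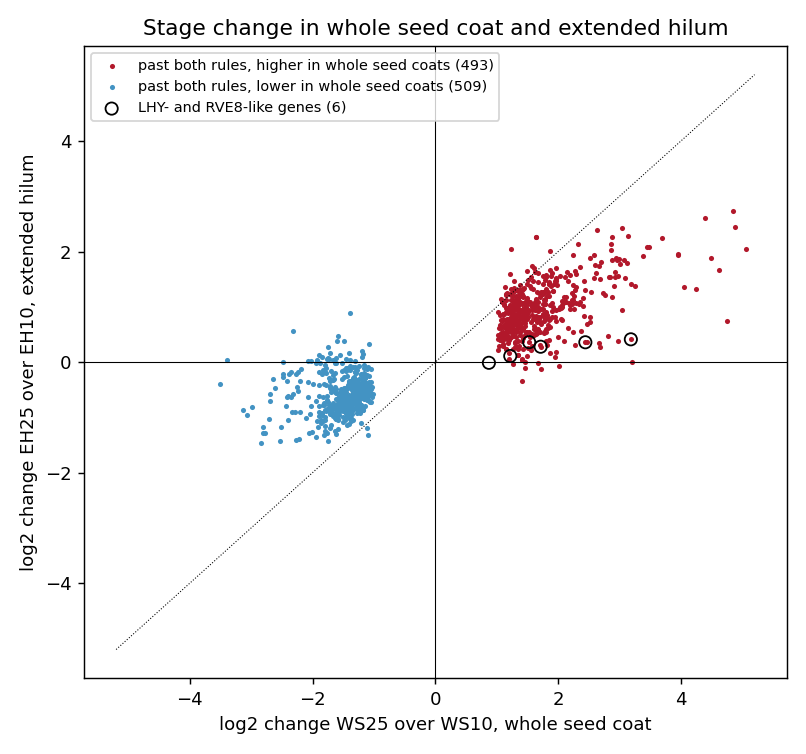
Log2 change WS25 over WS10 in whole seed coats (horizontal axis) and EH25 over EH10 in the extended hilum (vertical axis) for the 493 genes past both rules higher and the 509 past both rules lower. The dotted line marks equal change; most points keep their sign, with medians of 0.93 and -0.62 on the vertical axis, and the circled LHY- and RVE8-like genes lie near 0 there.

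At WS50 the levels came from the non-stranded kit, and stage and kit cannot be told apart. Histone Glyma.11G130900 had 70.9, 16.4 and 19.7 scaled RPKM at WS10, WS25 and WS50 in UC7, and 45.2, 18.1 and 12.9 in UC413. The CESA7 gene Glyma.04G153700 had 4.58, 14.2 and 45.6 in UC7, and 14.3, 30.7 and 64.9 in UC413. FLA11 (Glyma.03G179900) had 1.24, 9.97 and 20.2 in UC7, and 2.14, 13.9 and 36.9 in UC413. Proline-rich protein 2 (Glyma.04G005400) had 5.70, 25.9 and 67.5 in UC7, and 11, 38.9 and 145 in UC413. In these 3 wall genes the levels were in the order of seed weight in both isolines, while the histone was low at both WS25 and WS50. The isolines parted in other genes that were high at WS25. The DUF239 gene Glyma.06G050400 had 0.0524, 11.3 and 1.63 in UC7, and 0.193, 12.6 and 25.2 in UC413, and the galactosyltransferase Glyma.05G106900 had 0.0812, 8.51 and 1.25 in UC7, and 0.113, 9.72 and 19.6 in UC413. Glyma.02G268000, the ACC oxidase, was at 0.253, 91.7 and 0.915 in UC7, and at 1.30, 4.91 and 2.16 in UC413.

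**Figure D5:**
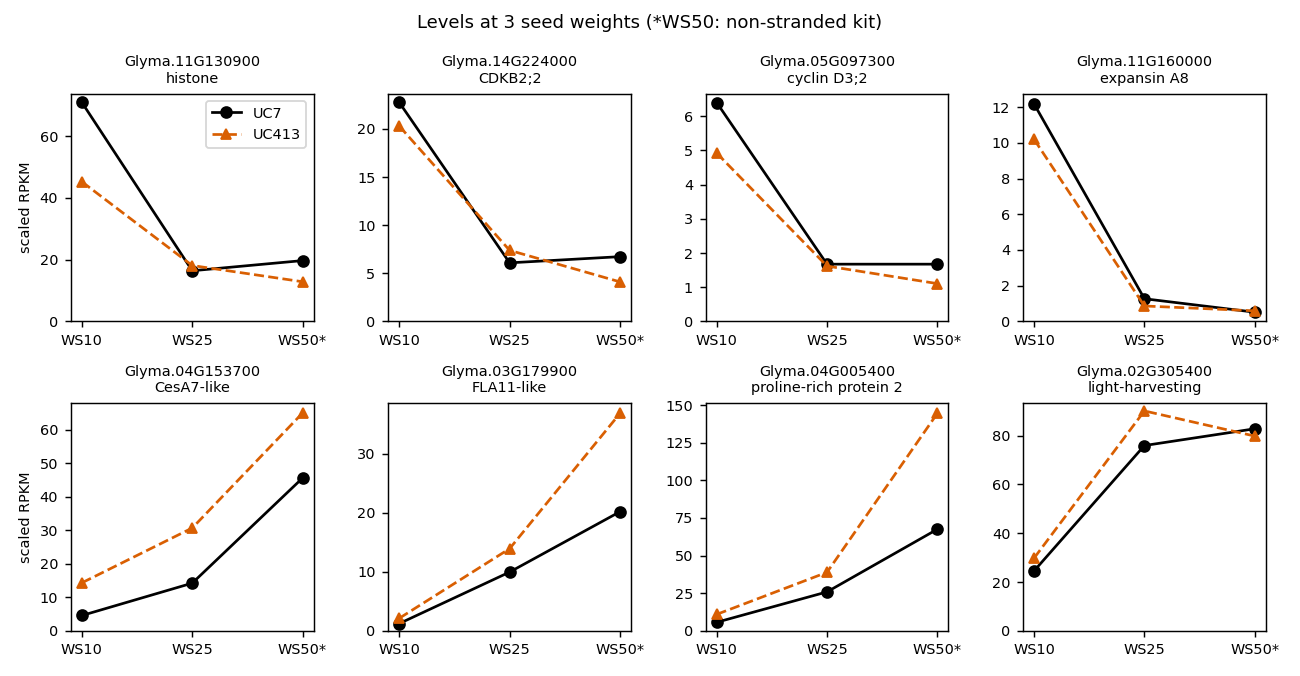
Scaled RPKM of 8 genes at WS10, WS25 and WS50, 1 line for each isoline and 1 library for each point; WS50 was made with the non-stranded kit. The histone, CDKB2;2, cyclin D3;2 and expansin A8 genes were highest at WS10, while the CESA7, FLA11 and proline-rich protein 2 genes were highest at WS50 in both isolines.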

How the data were processed

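RNA of whole seed coats was sequenced in 1 library for each of 2 isolines and stages. The p-values therefore rest on the difference between the isolines in the stage change, pooled over models. No spread between replicates of the same isoline and stage enters them. The authors aligned the reads with Bowtie (version not given in the sources used here) to 88647 Glyma cDNA models of Wm82.a2 and deposited RPKM; replicates were not pooled, and a read could count for several models. Multiplying RPKM by the length of a model gave whole steps of 1 alignment for 100% of the values (tolerance 0.01), and hence the alignments per library. Kits were taken from the study's supplement. RPKM was divided by the median of ratios over the 4 libraries, the kind of size factor used by DESeq, which the authors ran on counts. Tests were run on models that reached an RPKM of 1 in 2 or more of the 4 libraries. A limma model (limma 3.58.1, R 4.3.3) was fitted to log2(scaled RPKM + 0.25), with stage and isoline as terms and a trend in the prior variance, and p was adjusted over all tested models (Benjamini-Hochberg). The pseudocount makes the change of low genes smaller. WS50 libraries were scaled to the same level but not tested. Lists were built from domains, best Arabidopsis hits and descriptions, with 1 model per gene. Genes were named as the 15 largest changes each way past both rules with a scaled RPKM of at least 5 in the higher stage, the 10 largest differences in level each way among models called or past 2-fold in both isolines, the leading and most abundant members of each list, and genes the study names. The libraries, lists and genes were chosen with earlier results of these data known. The code was tested on simulated data. Alternatives changed the scaling, pseudocount, filter, models, terms, libraries, prior or tool.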

Additional observations from a re-analysis of the deposited data

Results flagged for a closer look

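A set of 26 genes moved at least 2-fold in opposite directions in the 2 isolines. The isolines have 1 library at each stage, so the difference was not tested. The widest gap was in Glyma.13G194400, which the file does not annotate, with 1.11 (UC7) and 0.290 (UC413) scaled RPKM at WS25, against 0.176 and 47.5 at WS10, so that the UC7 change minus the UC413 change was 8.14 on the log2 scale. Its level rests on 1 library, UC413 at WS10. Glyma.14G052000, a glycine-rich protein, differed by 6.50, with 8.83 (UC7) and 0.362 (UC413) at WS25, against 0 and 1.28 at WS10. Glyma.08G199300, a myo-inositol oxygenase that feeds sugars into wall synthesis, differed by 3.89, with 8.03 (UC7) and 0.799 (UC413) at WS25, against 1.03 and 2.15 at WS10. The phosphatase-related Glyma.08G194900 differed by 3.77, with 5.53 (UC7) and 2.07 (UC413) at WS25, against 2.29 and 13.7 at WS10. Glyma.11G208700, with the hit oxidative stress 3, differed by 3.60, with 7.89 (UC7) and 0.309 (UC413) at WS25, against 1.72 and 1.39 at WS10. In each of the 26 genes the UC7 change was the positive one. Among the others, the mitogen-activated protein kinase MPK3 (Glyma.12G073000) had 87.1 (UC7) and 10.9 (UC413) at WS25, against 43.2 and 23.0 at WS10.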

How the results depend on the processing

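Against 3176 models called higher and 2851 lower, limma called 565 and 778 with RPKM as deposited, 475 and 810 with library sums made equal outside the rDNA region, 1941 and 1640 on models with the suffix 1 only (29974 tested), 192 and 192 with no isoline block, 619 and 762 with 12 libraries in 1 fit, 56 and 43 with the WS50 libraries added, 4605 and 4514 with a robust prior, and 1922 and 2086 by limma-voom. With no low-value filter it called 0 and 0 (15848 models at an unadjusted p under 0.05). Leaving out any 1 of the 4 libraries, in the fit of 12 libraries that called 619 and 762 when complete, gave 0 to 0 calls in either direction, with 4488 (without UC7 WS10) to 11767 (without UC413 WS25) models at an unadjusted p under 0.05; that change comes from 1 isoline. Quantile and upper quartile scaling, the other pseudocounts, a filter at RPKM 2 and the rDNA region left out stayed within 1.5 times. The size rule gave 368 higher and 331 lower with a pseudocount of 1, 513 lower on models with the suffix 1 only, 2385 and 2353 at 1.5-fold and 78 and 40 at 4-fold. The isoline is the pair of the reported fit, whose unpaired form is the 192 and 192 above. A block by replicate number could not be made there, since each isoline has 1 library at each stage.

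The difference between the whole seed coat and the extended hilum changes called 5 models with RPKM as deposited, 1 with a pseudocount of 1 and 1 with no low-value filter, against 0. Leaving out 1 library gave 0 to 83 calls, the 83 without UC7 EH25 replicate 1. With a replicate block within EH10 and EH25 it called 0 (1574 models at an unadjusted p under 0.05). Same-numbered libraries of the isolines share only a number in the labels, and their deviations had correlations of 0.186 at EH10 and 0.205 at EH25 across models.

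The numbers of called genes in the gene lists depended on the setting. With RPKM as deposited 82 of these counts moved and 38 did not. With an equal sum outside the rDNA region 79 moved, and with 12 libraries in 1 fit 87. With no isoline block 98 moved, and 99 each with no low-value filter and with WS50 added. Few moved with a pseudocount of 1 (5) or 0.05 (1), or with the rDNA region left out (1). Over the settings other than a library left out, which all keep the 4 tested libraries, no gene named in the text changed direction. Their values stayed on the same side of the threshold in 1669 cases, lost the call in 384 and gained it in 29, and the losses were most frequent with no low-value filter (109 genes), with the WS50 libraries added (84) and with no isoline block (72).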

Other observations

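Genes of the circadian clock were listed after their values had been seen, and nothing is drawn from the list. Of 32 tested clock genes 8 rose and none fell. All 4 genes with the hit LHY, a morning-phased regulator in Arabidopsis, rose in whole seed coats. Glyma.03G261800 had 27.7 (UC7) and 20.8 (UC413) scaled RPKM at WS25, against 1.76 and 3.29 at WS10 (log2 change 3.18, SE 0.26, adjusted p 0.000573), and Glyma.19G260900 had 20.2 (UC7) and 16.5 (UC413) at WS25, against 2.36 and 4.18 at WS10. Glyma.16G017400 and Glyma.07G048500 changed by 1.22 and 0.87. Both genes with the hit RVE8, a relative of LHY, rose as well, and Glyma.10G048500 had 3.84 (UC7) and 2.50 (UC413) at WS25, against 0.821 and 0.726 at WS10, with Glyma.13G136300 at a log2 change of 1.53. The 3 GI genes, which peak in the evening in Arabidopsis, had log2 changes of 0.01, 0.15 and 0.35, and none passed the test.

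In the extended hilum the LHY genes changed by 0.41, 0.36, 0.11 and -0.01 and the RVE8 genes by 0.28 and 0.36, and none was called. The difference between the tissues for Glyma.03G261800 was 2.76 (SE 0.51, unadjusted p 0.00037, adjusted p 0.612). At WS50 the gene had 14.5 (UC7) and 20.8 (UC413). The hour of harvest is not given in the sources used here, and its part in these changes was not tested.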
